A study of Mus musculus with 4 samples.

Results

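Vascular endothelial growth factors (VEGFs) are secreted ligands that bind receptor tyrosine kinases, best known from the endothelial cells of blood and lymph vessels, where they drive growth, survival and permeability. Neuropilins are co-receptors that bind both VEGFs and class 3 semaphorins and lack a kinase of their own. Astrocytes are a known source of VEGF-A in the brain, and transcription of its gene is known to rise when oxygen falls. The genes described here are the ligand genes *Vegfa*, *Vegfb*, *Vegfc* and *Pgf*, the receptor genes *Flt1*, *Kdr* and *Flt4*, and the neuropilin genes *Nrp1* and *Nrp2*. They are 9 of the 29676 gene names on the array, and were chosen by name, so that every non-control probe carrying one of these names was taken, 14 probes in all.

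The cells were astrocyte-enriched cultures (AECs), that is, mixed glial cultures from the cortex, stripped of meninges, of newborn ICR mice of either sex, all of which, controls included, had been treated to deplete microglia with PLX3397, which blocks the receptor Csf1r that these cells need to survive. They were either untreated (n = 2) or kept for 15 h under oxygen-glucose deprivation (OGD, n = 2), in which the medium holds no glucose and the gas little or no oxygen. RNA of each culture was labeled with the dye Cy3 and hybridized to its own array, and expression was read as the processed signal, a background-subtracted intensity per probe. The question was how expression of the VEGF ligands and their receptors differed after OGD.

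The 4 arrays shared 1 slide and 1 scan. The 75th percentile of the processed signal was 2135 and 2164 in untreated AECs against 887 and 776 under OGD. Signals were therefore compared as log2 of the processed signal minus each array's 75th percentile, the scaling that the study's methods name. Control RNA spiked into each sample gives another scaling, since the mean of the spiked-in control probes differed by −0.085 (log2) between the groups. The 9 single control probes differed by −0.75 to 0.28 (SD 0.36), so small changes on this scaling are uncertain. The median change over all probes tested was 0.18 under the first scaling and −1.11 under the second, so a moderate rise relative to the 75th percentile can be a fall relative to the spiked-in controls. Normexp background correction, run as an alternative with the first scaling, moved this median from 0.18 to 0.56. Changes given after normexp are to be read against that value. The study's methods label the same amount of total RNA for each sample, so the spiked-in scaling does not read signal per cell or per culture. In bulk samples such as these, fewer cells of a type and less RNA per cell cannot be told apart. All 15 astrocyte markers listed, among them *Gfap* and *Aqp4*, exceeded background clearly on each of the 4 arrays. Of 14 endothelial markers, 6 (*Tek*, *Tie1*, *Emcn*, *Cldn5*, *Erg* and *Sox17*) were not well above background on any array, and the other 8, among them *Pecam1*, *Cdh5* and *Vwf*, were so on each array.

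OGD was followed by a large rise of *Vegfa*, of *Pgf* and of 1 of the *Flt1* probes, while the other tested probes changed by at most 2.16-fold in either direction relative to the 75th percentile. Of the 14 probes, 12 were marked by the scanner software as well above background on each array and entered the test, which left *Flt4* with no tested probe. By limma with Benjamini-Hochberg adjustment over all 28254 probes tested, 10 of the 12 passed an adjusted p of 0.05, 8 of them higher and 2 lower after OGD. Over all probes tested, 65.0% passed, 37.9% higher and 27.1% lower. A fit without 1 array leaves a lone array in a group, which is then assumed to vary as the other group did. Adjusted p-values of such fits thus rest on the spread of the group that kept 2 arrays. Above 2-fold, 5 of the 12 probes were higher and 0 lower, where 13.9% of all probes tested were higher and 14.8% lower. Above 10-fold, the limit that the study's methods name, 4 of the 12 were higher, namely both probes of *Vegfa*, the single probe of *Pgf* and the *Flt1* probe designed on transcript variant 2. Of all probes tested, 0.811% were higher by more than 10-fold. These 4 were also the members whose processed signal, before any scaling, was above both untreated arrays on both OGD arrays, which held for 5.45% of all probes tested. A further 7 were lower on both OGD arrays before scaling, as were 89.7% of all probes tested, and for 1, a *Kdr* probe, the groups overlapped. The median over the 12 probes was 0.89 on the log2 scale against 0.18 over all probes tested. The scaled values of the groups did not overlap for any of the 12 probes, nor for 84.7% of all probes tested. With 2 arrays per group a two-sided exact permutation test cannot give a p below 0.333, which was its p for each of the 12 probes.

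**Figure D1:**
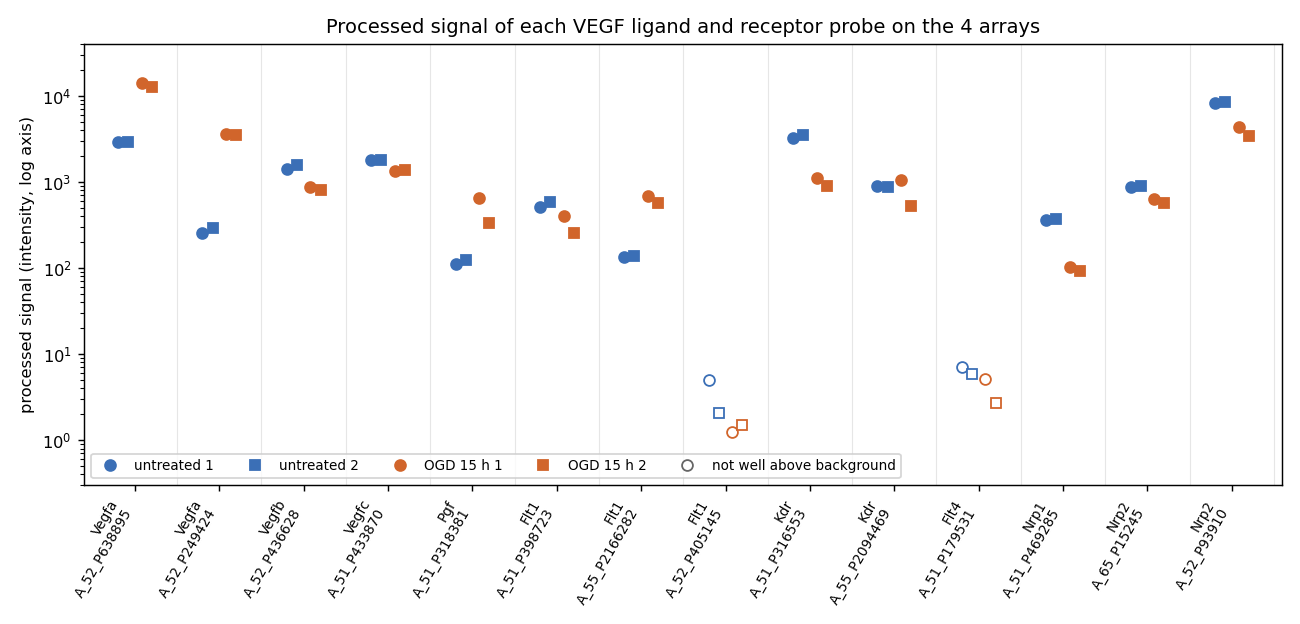
Processed signal (intensity, log axis, before scaling) of the 14 probes of VEGF ligands and receptors on each array, with untreated arrays in blue, OGD arrays in orange, replicate 1 as circles and replicate 2 as squares. Open symbols mark the 2 probes not well above background on any array, and the OGD points lie above the untreated points for both *Vegfa* probes, *Pgf* and *Flt1* probe A_55_P2166282. Signals are to be compared within a probe, not between probes.

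*Vegfa* encodes VEGF-A, the main ligand for vessel growth, which signals through the receptors encoded by *Kdr* and *Flt1*. It had 2 probes on the minus strand, an upstream probe, A_52_P249424, and a downstream probe, A_52_P638895, at chr17:46154387-46154446 on mm9. The first 30 of the 60 bases of the downstream probe are shown, as those of a member that rose above 10-fold, in lower case with no letters singled out.
Vegfa A_52_P638895: cagatcggtgacagtcactagcttgtcctg

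The processed signal of the upstream *Vegfa* probe was 256 and 293 in untreated AECs against 3555 and 3483 under OGD. The groups were far apart, and the 2 arrays of each group were close together. On the scaled log2 values this was a rise from −2.97 ± 0.12 to 2.08 ± 0.11 (SD, n = 2 each), a log2 fold change of 5.06 ± 0.11 (SE, 33.3-fold, limma adjusted p = 0.00073). The downstream *Vegfa* probe had processed signals of 2929 and 2942 in untreated AECs against 14220 and 12607 under OGD. Its log2 fold change was 3.56 ± 0.07 (SE, 11.8-fold, limma adjusted p = 0.00073). Both *Vegfa* probes remained higher on the spiked-in scaling, by log2 fold changes of 3.77 and 2.27. Of all probes tested, 99.8% had a lower change than the upstream *Vegfa* probe, and 99.4% a lower change than the downstream one.

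*Pgf* encodes placental growth factor, a ligand of the receptor encoded by *Flt1* and not of that encoded by *Kdr*. It had 1 probe, A_51_P318381, whose 60 bases cover 2003 bases at chr12:86508335-86510337 (mm9, minus strand), because the probe crosses a splice junction. Its first 30 bases are given here as those of a member that rose above 10-fold.
Pgf A_51_P318381: tagaaactcacagactgaggaaccccaccc

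The processed signal of *Pgf* was 111 and 123 in untreated AECs against 654 and 336 under OGD. Both OGD arrays were above both untreated arrays, but OGD array 1 was far above OGD array 2. The log2 fold change was 3.38 ± 0.29 (SE, 10.4-fold, limma adjusted p = 0.0021), and 2.09 on the spiked-in scaling. Without OGD array 1 it was 2.99 and without untreated array 1 it was 3.31, both below 10-fold.

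*Vegfb* encodes VEGF-B, a ligand of the receptor encoded by *Flt1* known for its effects on the heart and on lipid uptake, and *Vegfc* encodes VEGF-C, the main ligand for the growth of lymph vessels. The processed signal of *Vegfb* (A_52_P436628, chr19:7057245-7057304, mm9, minus strand) was 1400 and 1585 in untreated AECs against 880 and 806 under OGD. That of *Vegfc* (A_51_P433870, chr8:55271533-55271592, mm9, plus strand) was 1805 and 1803 against 1344 and 1383. Before scaling, the signals of both ligands were thus lower on both OGD arrays than on both untreated arrays. Relative to the 75th percentile, *Vegfb* was higher by 0.55 ± 0.10 (log2 fold change ± SE, limma adjusted p = 0.011), and relative to the spiked-in controls it was lower, at −0.74 (adjusted p = 0.0038). Without untreated array 1 or 2 the adjusted p of *Vegfb* was 0.083 or 0.053. *Vegfc* was higher by 0.97 ± 0.11 relative to the 75th percentile (limma adjusted p = 0.0040) and was at −0.32 relative to the spiked-in controls, where it did not pass the test (adjusted p = 0.053). All 4 ligand genes were thus higher relative to the 75th percentile, but relative to the spiked-in controls *Vegfa* and *Pgf* rose and *Vegfb* fell. The gene for the remaining mammalian ligand of this receptor family, *Vegfd*, was at −0.45 ± 0.10 (limma adjusted p = 0.020). After normexp background correction it was at 0.34, below the median of 0.56 over all probes tested. Its processed signal was only 118 and 120 in untreated AECs against 38.1 and 29.5 under OGD.

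*Flt1* encodes a receptor that binds VEGF-A, VEGF-B and placental growth factor tightly and signals weakly, and it is also known to be made as a shorter secreted form that holds ligand back from other receptors. The array had 3 *Flt1* probes, all on the minus strand of chromosome 5 (mm9). The probe A_51_P398723 (chr5:148373791-148373850) was designed on transcript variant 1, and A_55_P2166282, 73081 bases upstream of it (chr5:148446872-148446931), on transcript variant 2. Whether variant 2 encodes the secreted form is not given in the sources used here. The first 30 bases of both are shown, as the *Flt1* probes that moved unequally.
Flt1 A_55_P2166282: ggagggtactgccgttcctgtgtggtattt
Flt1 A_51_P398723: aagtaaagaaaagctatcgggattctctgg

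The variant 2 probe of *Flt1* had processed signals of 132 and 137 in untreated AECs against 682 and 568 under OGD. Both OGD arrays lay far above both untreated arrays. The log2 fold change was 3.58 ± 0.08 (SE, 12-fold, limma adjusted p = 0.00073), and 2.29 on the spiked-in scaling. The variant 1 probe had processed signals of 504 and 585 in untreated AECs against 397 and 255 under OGD, lower on both OGD arrays before scaling. Its log2 fold change was 0.60 ± 0.19 (SE) relative to the 75th percentile, which did not pass the test (limma adjusted p = 0.055), and −0.69 relative to the spiked-in controls (adjusted p = 0.027). Without OGD array 2 it was at 0.83 and without OGD array 1 at 0.38. It passed as higher with the robust prior (limma adjusted p = 0.027), normexp (0.0055), quantile normalization (0.046) and the stricter filter (0.039). The furthest upstream *Flt1* probe, A_52_P405145 (chr5:148465976-148466035), had processed signals between 1.25 and 4.96, was not well above background on any array and was not tested.

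*Kdr* encodes the receptor through which VEGF-A is best known to act on endothelial cells. Both of its probes were designed on the same transcript, on the minus strand of chromosome 5 (mm9), with A_55_P2094469 (chr5:76330395-76330454) lying 1086 bases upstream of A_51_P316553 (chr5:76329309-76329368). Their first 30 bases are shown because the changes of these probes had opposite signs relative to the 75th percentile, although both were below 0 relative to the spiked-in controls.
Kdr A_55_P2094469: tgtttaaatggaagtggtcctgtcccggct
Kdr A_51_P316553: ctactgtatcctttagaattttaacctata

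The downstream *Kdr* probe was printed in 10 spots per array, with a coefficient of variation of 2.93% to 6.28% within an array. Its mean processed signal was 3264 and 3493 in untreated AECs against 1098 and 888 under OGD. It was lower on both OGD arrays, and remained so after scaling, with a log2 fold change of −0.40 ± 0.09 (SE, limma adjusted p = 0.022) relative to the 75th percentile and −1.69 relative to the spiked-in controls. Without untreated array 1 or 2 its adjusted p was 0.10 or 0.15. The upstream *Kdr* probe had processed signals of 903 and 877 in untreated AECs against 1058 and 521 under OGD. OGD array 1 was above both untreated arrays and OGD array 2 below them. Its log2 fold change was 1.11 ± 0.31 (SE, limma adjusted p = 0.039) relative to the 75th percentile and −0.18 relative to the spiked-in controls (adjusted p = 0.60), and without untreated array 1 or 2 the adjusted p was 0.13 or 0.15. Without OGD array 1 the change was 0.70 and without OGD array 2 it was 1.53. *Flt4*, the receptor gene for VEGF-C and VEGF-D, was read by 1 probe (A_51_P179531, chr11:49465646-49465705, mm9, plus strand) with processed signals between 2.68 and 7.09, which was not well above background on any array.

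*Nrp1* and *Nrp2* encode the neuropilins, co-receptors of VEGF receptors and the binding parts of class 3 semaphorin receptors. *Nrp1* was read by 1 probe, A_51_P469285 (chr8:131026650-131026709, mm9, plus strand). The processed signals of *Nrp1* were 361 and 370 in untreated AECs against 103 and 91.3 under OGD. It was lower on both OGD arrays before and after scaling, by a log2 fold change of −0.54 ± 0.07 (SE, limma adjusted p = 0.0060) relative to the 75th percentile and −1.83 relative to the spiked-in controls. With normexp background correction the change of *Nrp1* was −0.10 and did not pass (limma adjusted p = 0.37). The median over all probes tested was then 0.56. Relative to that median *Nrp1* was at −0.65, against −0.72 in the reported fit. Without untreated array 1 or 2 its change was −0.55 or −0.54.

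*Nrp2* had 2 probes on the plus strand of chromosome 1 (mm9), A_65_P15245 (chr1:62843298-62843357), designed on transcript variant 5, and A_52_P93910 (chr1:62865129-62865188), designed on transcript variant 1 and lying 21831 bases downstream. Their first 30 bases are given as those of probes designed on different variants.
Nrp2 A_65_P15245: ggtttctgttggctgtcattgtcatctcca
Nrp2 A_52_P93910: tgagccagatcacgggaactcgagagcttt

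The upstream *Nrp2* probe had processed signals of 868 and 898 in untreated AECs against 629 and 570 under OGD, and the downstream one 8328 and 8456 against 4343 and 3399. Both were lower on both OGD arrays before scaling. The upstream probe was higher by 0.81 ± 0.08 (log2 fold change ± SE, limma adjusted p = 0.0026) relative to the 75th percentile and lower, at −0.48, relative to the spiked-in controls (adjusted p = 0.0099). The downstream probe was at 0.25 ± 0.09 relative to the 75th percentile, which did not pass (limma adjusted p = 0.087), and fell by 1.04 relative to the spiked-in controls (adjusted p = 0.00098). Without OGD array 1 the downstream probe was at 0.16 and without OGD array 2 at 0.33. It passed with the robust prior (limma adjusted p = 0.034) and normexp (0.047), where it was at 0.26, below the median of 0.56 over all probes tested. Under quantile normalization it was at 0.03 (limma adjusted p = 0.79) and under scaling to bright probes at 0.09 (0.42).

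**Figure D2:**
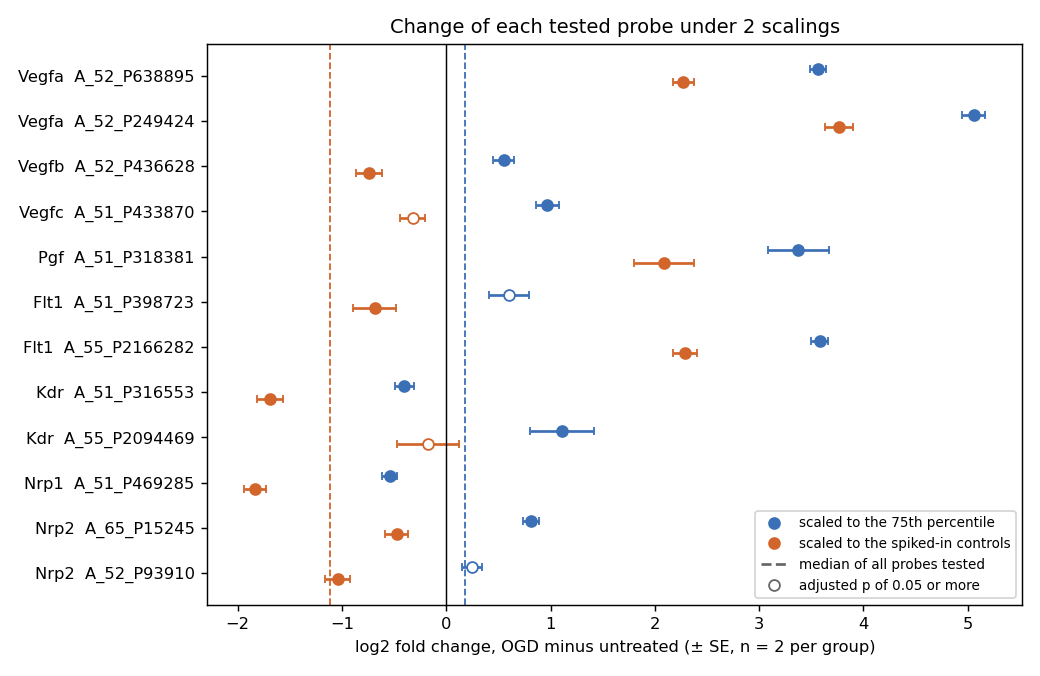
Log2 fold change (OGD minus untreated, ± SE, n = 2 per group) of the 12 tested probes relative to the 75th percentile of each array (blue) and to the spiked-in controls (orange). Dashed lines mark the median over all probes tested (0.18 and −1.11) and open symbols an adjusted p of 0.05 or more. Both *Vegfa* probes, *Pgf* and *Flt1* probe A_55_P2166282 lie above 0 under both scalings, the downstream *Kdr* probe and *Nrp1* lie below 0 under both, and the other 6 change sign.

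Probes of the same gene were next compared with each other, which does not depend on how whole arrays are scaled by a constant. For each of the 4 genes with 2 tested probes, the upstream probe had the higher change. The difference in log2 fold change was 2.98 ± 0.22 (SE) for *Flt1* (limma diffSplice adjusted p = 8.0e-05), 1.49 ± 0.14 for *Vegfa* (adjusted p = 0.00020), 1.51 ± 0.35 for *Kdr* (adjusted p = 0.012) and 0.57 ± 0.12 for *Nrp2* (adjusted p = 0.0087). All 4 passed, where 46.2% of the 12732 probes compared in this way over all genes did. Without untreated array 1 or 2 only *Flt1* and *Vegfa* passed, the adjusted p being 0.11 or 0.12 for *Kdr* and 0.13 or 0.12 for *Nrp2*. A higher change of the upstream probe was also common in the rest of the array. Among 3424 genes whose outermost probes lay more than 1000 bases apart on mm9, it was higher for 78.9%, with a median difference of 0.54 and quartiles of 0.07 and 1.28. Among 1390 genes whose probes lay closer, it was higher for 65.3%, with a median of 0.11. The *Flt1* difference was larger than that of 97.2% of all 4814 genes, those of *Kdr* and *Vegfa* than 85.3% and 84.9%, and that of *Nrp2* than 60.3%. These ranks are over a set that includes the 1390 genes with closer probes, whereas the probes of all 4 members lay more than 1000 bases apart.

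**Figure D3:**
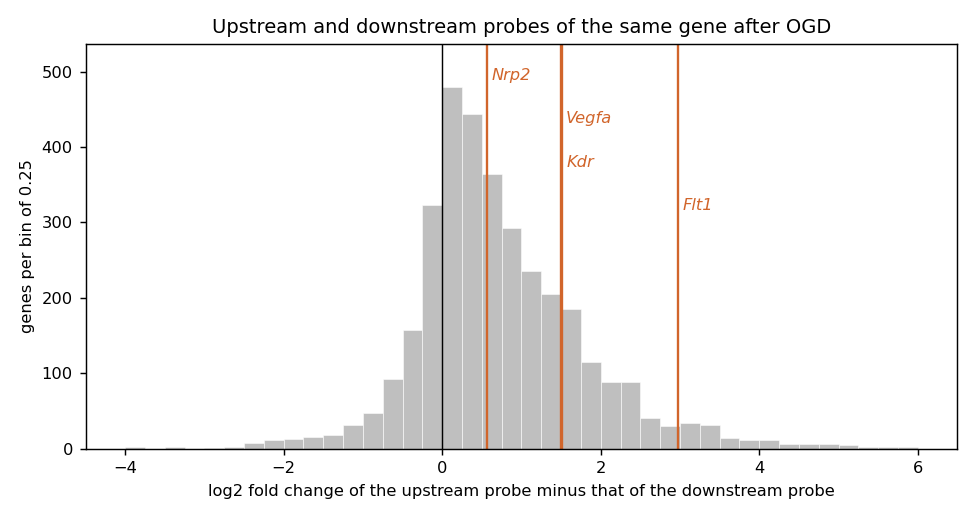
Number of genes (bars, bins of 0.25) by the log2 fold change of the upstream probe minus that of the downstream probe, for the 3424 genes whose outermost probes lie more than 1000 bases apart. Vertical lines mark *Nrp2* (0.57), *Vegfa* (1.49), *Kdr* (1.51) and *Flt1* (2.98), all to the right of 0, as are most genes.

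The sequence just upstream of the annotated starts was read for the 3 members with a probe that rose above 10-fold. For *Flt1* only the variant 2 probe did so. The sequence was taken from RefSeq (GRCm38.p6, a later build than that of the probes). All 9 members had an entry, with 11 windows of 250 bases before to 50 bases after a start, since *Vegfa* and *Pgf* each had 2. The letters searched, on both strands, were ACGTG and GCGTG, the core of the element bound by hypoxia-inducible factors. A match to either was found in 7 of the 11 windows of members and in 43.8% of the 32851 windows of all genes. The sequence GGGCGG, the core of the GC box bound by Sp1, was found in 10 of the 11 against 35.7% of all windows. TGATGNAA, an element bound by ATF4 with a partner, and TGANTCA, bound by AP-1, were found in 0 of the 11, against 3.97% and 7.81% of all windows. The 250 bases before the start are shown in the direction of transcription, with matches to ACGTG or GCGTG, or to the reverse complement of either, in capitals. They come from chr17:46032378-46032627 for *Vegfa*, chr12:85177314-85177563 for *Pgf* and chr5:147726012-147726261 for *Flt1*, all on the minus strand.
Vegfa: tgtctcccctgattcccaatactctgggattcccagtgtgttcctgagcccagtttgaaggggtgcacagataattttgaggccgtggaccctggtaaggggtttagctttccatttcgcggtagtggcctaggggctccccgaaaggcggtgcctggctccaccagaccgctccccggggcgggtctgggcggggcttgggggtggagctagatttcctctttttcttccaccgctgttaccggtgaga
Pgf: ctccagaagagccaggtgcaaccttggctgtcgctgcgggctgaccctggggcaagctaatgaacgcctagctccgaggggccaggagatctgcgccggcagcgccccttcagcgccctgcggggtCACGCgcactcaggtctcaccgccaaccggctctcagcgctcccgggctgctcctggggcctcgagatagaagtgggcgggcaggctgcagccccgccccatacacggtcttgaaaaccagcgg
Flt1: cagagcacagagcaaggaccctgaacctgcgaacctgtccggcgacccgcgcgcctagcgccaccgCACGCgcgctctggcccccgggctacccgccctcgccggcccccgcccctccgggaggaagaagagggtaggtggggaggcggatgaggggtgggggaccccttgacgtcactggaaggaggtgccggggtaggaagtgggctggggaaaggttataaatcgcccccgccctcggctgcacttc

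The windows of *Pgf* and *Flt1* thus shown here held 1 match each and that of *Vegfa* none, which says only that these letters are not in this window. The other *Vegfa* entry, whose start lies inside the gene, held 2, and the other *Pgf* entry held 0. *Nrp1*, whose probe fell, also held 1 match. These matches are a description of the sequence, not of bound sites.

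The genes that act on *Vegfa* or respond to the same factors were then described. Each gene was represented by its brightest probe, and of the 21061 genes tested 37.1% were higher and 27.8% lower, with a median log2 fold change of 0.16 relative to the 75th percentile and −1.13 relative to the spiked-in controls. On the latter scaling 3.84% of all genes tested rose and 83.3% fell, which is the background of the counts on that scaling. Of 28 target genes of hypoxia-inducible factor 1 (HIF-1), 26 were tested, of which 25 rose and 1 (*Pfkfb4*) fell, with a median of 1.68. Relative to the spiked-in controls 14 rose and 5 fell. The largest rises were those of *Slc16a3*, a lactate transporter (log2 fold change 6.30 ± 0.12), *Ankrd37* (5.92 ± 0.15) and *Adm*, which encodes the vasodilator adrenomedullin (4.54 ± 0.08), each with a limma adjusted p of 0.00073. Among 16 factors known to act on *Vegfa* transcription or mRNA stability, 7 rose and 3 fell, with a median of 0.32, and relative to the spiked-in controls 1 rose and 13 fell. *Atf4*, a transcription factor of the response to nutrient and endoplasmic reticulum stress, rose by 2.00 ± 0.08 (limma adjusted p = 0.00077) and was still higher, at 0.72, relative to the spiked-in controls, while its other probe was at 3.04. *Hif1a*, the oxygen-regulated part of HIF-1, was higher by 1.21 ± 0.07 (limma adjusted p = 0.0012) relative to the 75th percentile but at −0.08 relative to the spiked-in controls, and its other probe was higher by 0.46. *Ppargc1a*, a coactivator of mitochondrial genes, fell by 1.09 (limma adjusted p = 0.0023), with its other probe at −0.60.

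Downstream of the receptors, of 40 transducers of VEGF receptor signals, 15 rose, 11 fell and 14 did not pass relative to the 75th percentile, with a median of 0.10. Relative to the spiked-in controls 2 rose and 35 fell. *Pxn*, which encodes the focal adhesion protein paxillin, rose by 2.40 ± 0.17 (limma adjusted p = 0.0016), and *Sphk1*, a sphingosine kinase, by 1.72 ± 0.09 (limma adjusted p = 0.0010). *Nfatc1*, a transcription factor activated by calcineurin, fell by 2.01 at its brightest probe (limma adjusted p = 0.00078), while its other probe was at 0.30. Among 13 receptor partners and modifiers, 6 rose and 3 fell, with a median of 0.27, and relative to the spiked-in controls 1 rose and 10 fell. *Itgb3*, an integrin subunit that associates with the receptor encoded by *Kdr*, rose by 1.80 ± 0.11 at its brightest probe and was at 3.04 at its other probe (limma adjusted p of the former 0.0012), and the matrix protein gene *Ccn1* by 1.42 ± 0.08 (adjusted p = 0.0011), the latter by only 0.13 relative to the spiked-in controls. *Ptprb*, an endothelial receptor phosphatase, fell by 1.28 (limma adjusted p = 0.0062), but was at −0.43 after normexp background correction, with processed signals of 56.1 and 36.2 under OGD.

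Class 3 semaphorins are known to compete with VEGF-A for neuropilins, and plexins are their signaling receptors. Of 7 class 3 semaphorins 3 rose and 2 fell, with a median of 0.39, and relative to the spiked-in controls 0 rose and 5 fell. *Sema3g* was higher by 1.24 ± 0.15 (limma adjusted p = 0.0046), but at −0.04 relative to the spiked-in controls, with processed signals of only 16.1 to 23.2. *Sema3a* fell by 1.14 at its brightest probe (limma adjusted p = 0.011), which was at −0.51 after normexp background correction, and its other probe was at −0.21. *Sema3f* fell by 0.39 (limma adjusted p = 0.018). Of 5 plexins 1 rose and 3 fell, with a median of −0.50, and relative to the spiked-in controls 0 rose and 5 fell. *Plxna2* fell by 1.76 (limma adjusted p = 0.00081) and *Plxna3* by 0.50 (adjusted p = 0.0077), while *Plxna1* was higher by 0.52 ± 0.09 (adjusted p = 0.012) and at −0.76 relative to the spiked-in controls.

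Of 18 other angiogenic growth factors and receptors, 15 were tested, of which 6 rose and 7 fell, with a median of −0.15, and relative to the spiked-in controls 2 rose and 10 fell. *Met*, the receptor of hepatocyte growth factor, rose by 2.60 ± 0.16 (limma adjusted p = 0.0013). *Pdgfrb*, a receptor of platelet-derived growth factor that marks mural cells, fell by 2.42 (limma adjusted p = 0.00075), and *Angptl4*, an angiopoietin-like factor, by 1.94 (adjusted p = 0.0029). Of 10 angiogenesis inhibitors 6 rose and 1 fell, with a median of 0.67, and relative to the spiked-in controls 1 rose and 7 fell. The chemokine gene *Cxcl10* rose by 2.28 ± 0.15 at its brightest probe (limma adjusted p = 0.0013), its other probe being at 6.37, the thrombospondin gene *Thbs1* by 1.57 ± 0.10 (adjusted p = 0.0014) and the protease gene *Adamts1* by 1.40 ± 0.08 (adjusted p = 0.0011). Relative to the spiked-in controls these changes were 0.99, 0.29 and 0.11.

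**Figure D4:**
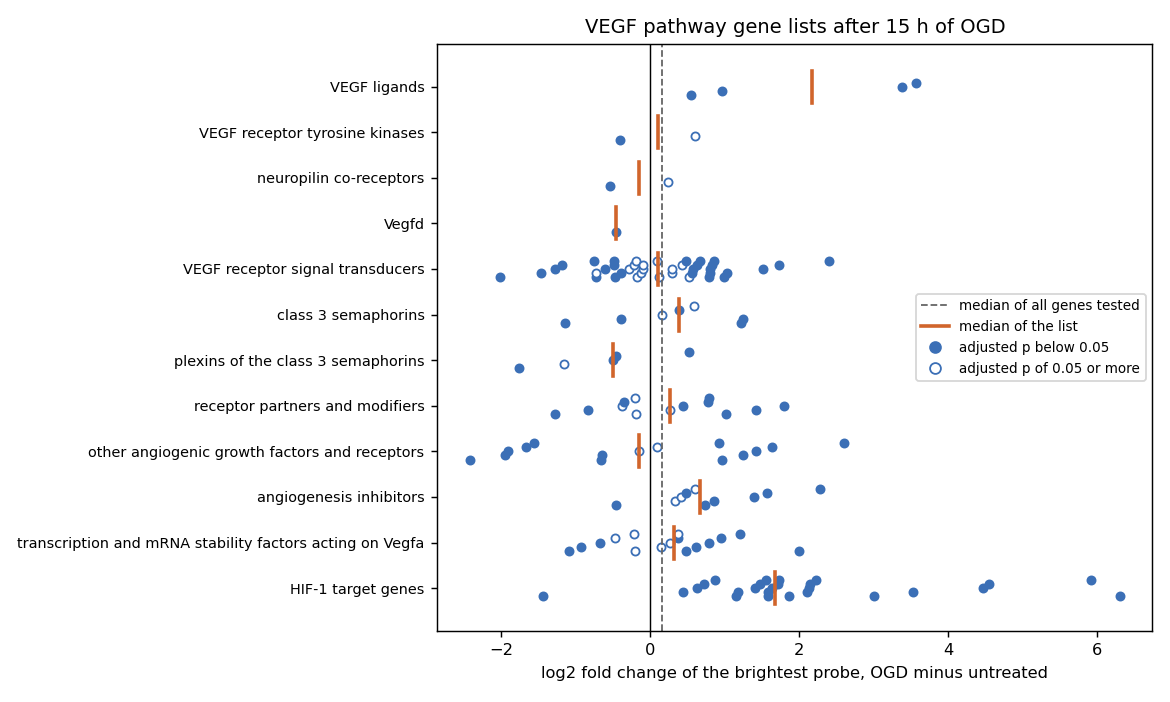
Log2 fold change (OGD minus untreated, relative to the 75th percentile) of the brightest probe of each gene in the VEGF pathway lists, with 1 point per gene, filled where the limma adjusted p is below 0.05. Orange bars mark each list's median and the dashed line that of all 21061 genes tested (0.16), and the HIF-1 targets lie to the right of it except *Pfkfb4*.

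Markers of vascular and other cells were read beside the receptors. Levels were summed over the tested genes of a list, each in multiples of its array's 75th percentile. A bright probe thus weighs more in a sum than a dim one, whatever the level of its transcript. The endothelial sum was 3.30 to 3.34 in untreated cultures and 7.23 to 7.25 after OGD. Without the probes of *Slco1a4*, a transporter gene, and *Egfl7*, which encodes a secreted vascular factor, it was 0.38 to 0.39 untreated and 0.30 to 0.32 after OGD. Of the 8 endothelial markers tested, *Slco1a4* rose by 1.26 and *Egfl7* by 1.14, and *Vwf*, *Esam* and *Eng* were at −1.16, −0.65 and −0.57, all past the adjusted p, while *Pecam1* was at −0.01. After normexp background correction *Vwf*, *Esam* and *Eng* were at −0.17, 0.18 and 0.21, where the median over all probes tested was 0.56. *Vwf* thus stayed below 0, while *Esam* and *Eng* changed sign but stayed below that median. Relative to the spiked-in controls 0 endothelial markers rose and 6 fell. Of 8 pericyte and mural markers, 5 were tested, of which 2 rose and 2 fell. Their sum was 68.1 to 75.9 untreated and 127.9 to 134 after OGD. Without the probe of the smooth muscle actin gene *Acta2* it was 2.29 to 2.51 untreated and 0.91 to 0.98 after OGD, and relative to the spiked-in controls 0 of the 5 rose and 5 fell. The part of these cells in the changes of *Flt1*, *Kdr*, *Nrp1* and *Nrp2* was not tested.

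Of 11 microglia and macrophage markers, 10 were tested, of which 4 rose and 2 fell, and relative to the spiked-in controls 1 rose and 7 fell. The sum was 2.08 to 2.36 untreated and 6.55 to 6.77 after OGD, and without the lysosomal gene *Cd68*, which rose by 3.14, it was 1.52 to 1.82 and 1.69 to 1.92. The astrocyte sum was 170 to 192 untreated and 255 to 257 after OGD, with 8 of 15 markers higher and 2 lower relative to the 75th percentile, and 0 higher and 12 lower relative to the spiked-in controls. Of 9 oligodendrocyte lineage markers tested (10 listed) 3 rose and 3 fell, among them *Olig2* by 2.50, and the sum was 29.2 to 29.4 untreated and 25.5 to 26.3 after OGD. Of 4 markers of NG2 glia 2 were higher and 1 lower, with sums of 0.30 to 0.33 and 0.37 to 0.40. Of 7 neuronal markers 3 were higher and 2 lower, with sums of 29.0 to 31.0 and 31.0 to 34.1. Of 7 meningeal fibroblast markers 1 was higher and 1, *Col3a1*, lower, with sums of 11.0 to 14.9 and 9.29 to 11.7 over the 6 genes with a value on every array. Relative to the spiked-in controls these lists had 0, 0, 1 and 1 genes higher and 8, 4, 6 and 6 lower. The part of any of these cell types in the rise of *Vegfa* and *Pgf* was not tested.

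The genes whose pattern over the 4 arrays lay nearest to that of *Vegfa* (brightest probe, scaled log2 values centered on their own mean, 18332 genes compared) were *Hk2*, which encodes a hexokinase, *Gdf15*, a stress-induced cytokine gene, and *Pvr*, an adhesion receptor gene. Their Euclidean distances were 0.041, 0.047 and 0.084, and their log2 fold changes 3.53, 3.53 and 3.62. Nearest to *Nrp1*, the member with the largest fall, were *Trim59*, *Eme2* and *Cblb*, at distances of 0.021, 0.023 and 0.023 and log2 fold changes of −0.53, −0.54 and −0.54. With 4 arrays in 2 groups, such distances mainly express a like change between the groups.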

How the data were processed

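AECs, untreated or after 15 h of OGD (2 arrays each, groups from the labels), were hybridized with Cy3 to 1-color arrays. The authors deposited the processed signal of Agilent Feature Extraction (version 11.5.1.1 in the submitters' processing notes), a background-subtracted intensity per spot, not normalized between arrays, with flags for spots well above background and outliers. The table of the whole series that the authors deposited holds the same intensity values (largest difference 0) and was used as an alternative. Probe positions are on mm9, per the file headers. The sequence of 1 probe is not reported here.

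From these, log2 of the processed signal was taken, without control and outlier spots, averaged per probe, minus each array's 75th percentile. Probes well above background (at least a fraction of 0.5 of their spots) on both arrays of a group were kept. Groups were compared with lmFit, eBayes and diffSplice of limma 3.58.1 in R 4.3.3, with Benjamini–Hochberg adjustment over all probes kept and a threshold of 0.05. Python 3.11.15, pandas 2.3.3, numpy 2.4.6 and matplotlib 3.10.9 made the tables and figures. The fits were tested on simulated data. A gene with 1 value is represented by its brightest probe (mean over the 4 arrays). Named are all members, the up to 3 genes with the largest change past the threshold in each other list (brightest probe well above background on all arrays) and the nearest 3 genes by distance. *Pfkfb4*, *Cd68*, *Acta2*, *Olig2*, *Col3a1* and the endothelial markers were named after their values were seen. *Figf*, *Ctgf*, *Cyr61* and *Emr1* were matched to the array's names through RefSeq synonyms. The members and lists were chosen with earlier results of these data known.

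Per the methods, wells held cells of separate cultures from different pups, without saying so for each RNA sample, so that p-values measure the spread between these samples. The number of arrays limits the precision. Alternatives were the unpaired t-test of the methods, a robust limma prior that follows intensity, a block for the replicate number, quantile normalization, normexp (offset 50), scaling to the median, to spiked-in controls or to the 75th percentile of bright probes, no or a stricter filter, outlier spots kept, the series table, the mean over a gene's probes, limma on differences between probes, and each array left out. The position of probes in a gene over the whole array was compared, and the leading genes of marker sums were left out, after the data had been seen.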

Additional observations from a re-analysis of the deposited data

How the results depend on the processing

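The rises of both *Vegfa* probes, *Pgf* and the variant 2 *Flt1* probe, and those of *Vegfc* and the upstream *Nrp2* probe except under the spiked-in scaling, passed the adjusted p in every alternative run. Relative to the spiked-in controls, 6 probes changed sign, to −0.74 for *Vegfb*, −0.32 for *Vegfc*, −0.69 for the variant 1 *Flt1* probe, −0.18 for the upstream *Kdr* probe, and −0.48 and −1.04 for the upstream and downstream *Nrp2* probes, as the difference between the scalings shifts every probe down. The number of probes past the adjusted p and above 10-fold, 4 in the reported fit, was 2 after normexp background correction and 1 on the spiked-in scaling. The share of all probes tested above 10-fold is not given for these 2 settings, so these counts have no background. With each array left out in turn, the number past the adjusted p ranged from 6 to 12 (10 in the reported fit), that above 2-fold from 4 to 5, that above 10-fold from 3 to 4, that over the genes of the other lists from 68 to 110 (101 of 133 tested), and the number of genes with a difference between probes from 2 to 4. The lowest counts past the adjusted p alone came without an untreated array, and the lowest count above 10-fold without untreated array 1 or OGD array 1. By the unpaired t-test of the methods with Benjamini–Hochberg adjustment, 7 of the 12 probes passed, *Vegfb* (adjusted p = 0.052), the downstream *Kdr* probe (0.058) and the upstream *Kdr* probe (0.17) being lost. By that test 77 genes of the other lists passed, against 101 in the reported fit. The downstream *Kdr* probe was also lost under median scaling (0.051), and the upstream one under scaling to bright probes (0.054) and with no filter (0.058). With the replicate number as a block 9 passed, the downstream *Kdr* probe being lost (limma adjusted p = 0.054), and 99 genes of the other lists passed. The replicate numbers were not used to pair the samples in the reported fit. Deviations of same-numbered arrays correlated at −0.057 over 28163 probes, which cannot settle whether same-numbered samples came from the same culture. Signal over background limits the dim probes, and leaves *Flt4* and 1 *Flt1* probe without a test.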
